A study of Mus musculus with 18 samples.

Results

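The genes described here are the EGF receptor family and its ligands, 10 genes chosen by name from the 14521 named genes of the deposited mouse skin expression table. They comprise 3 receptors (Egfr, Erbb2 and Erbb3), 6 ligands (Areg, Ereg, Hbegf, Tgfa, Btc and Epgn) and 1 intracellular inhibitor (Errfi1), and all 10 were found in the table. The RNA came from 6 female littermates of the outbred, hairless SKH-1E strain (mice 2, 3, 7, 8, 9 and 10), all chronically irradiated with a solar simulator and killed after irradiation had ended, with no gene altered by design. Each mouse gave 3 libraries. These were of non-lesional but chronically UV-exposed skin (CHR), of papilloma (PAP) and of squamous cell carcinoma of the skin (cuSCC, labelled SCC). Each group thus holds 6 libraries, and the tissues were compared within the mouse. Because CHR skin was irradiated as well, every comparison is between irradiated tissues, and unirradiated skin was not analysed here. Each lesion type is a single library per mouse, and lesions were graded by histology. Whether a library came from 1 tumour or from more is not stated in the sources used here.

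EGF family ligands are made as membrane-anchored precursors that metalloproteases such as Adam10 and Adam17 cut free. The released ligand binds Egfr, which then pairs with another receptor of the family and switches on kinase signalling towards Ras, PI3 kinase and Stat3. Erbb2 has no known ligand of its own and acts as a partner, and Erbb3 has little kinase activity and binds neuregulins. In the epidermis the pathway drives keratinocyte proliferation and restrains terminal differentiation, and Errfi1 (also called Mig6) binds active receptors and blocks their kinase.

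The genes of 4 ligands sit together on mouse chromosome 5 (GRCm38 build, GENCODE M21 annotation), and they did not move together. In their genomic order they are Epgn (chr5:91027464-91035215, plus strand), Ereg (chr5:91074622-91093646, plus strand), Areg (chr5:91139599-91148432, plus strand) and Btc (chr5:91357261-91402994, minus strand), and these are the 4 protein-coding genes annotated in the 375.5 kb span. Tgfa lies at chr6:86195223-86275719 on the plus strand. The sequences just upstream of 4 ligand genes are shown because 3 of these genes rose in the tumours and Btc fell. They were taken from RefSeq promoter windows (GRCm38.p6), which matched 7 of the 10 genes in 8 windows. Each is written 5′ to 3′ on the gene's strand, upstream of the annotated transcript start, with searched motifs in capitals.
Epgn, chr5:91027267-91027463, plus strand: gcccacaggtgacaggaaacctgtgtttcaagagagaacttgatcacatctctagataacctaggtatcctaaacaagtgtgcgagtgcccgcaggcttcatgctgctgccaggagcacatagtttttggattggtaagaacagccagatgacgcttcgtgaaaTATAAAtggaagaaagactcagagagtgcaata
Areg, chr5:91139349-91139598, plus strand: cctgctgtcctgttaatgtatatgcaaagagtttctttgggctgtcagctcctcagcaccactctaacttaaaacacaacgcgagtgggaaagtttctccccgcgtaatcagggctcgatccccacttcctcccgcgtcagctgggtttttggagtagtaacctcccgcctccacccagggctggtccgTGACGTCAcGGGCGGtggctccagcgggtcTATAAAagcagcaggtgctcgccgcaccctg
Btc, chr5:91402995-91403244, minus strand: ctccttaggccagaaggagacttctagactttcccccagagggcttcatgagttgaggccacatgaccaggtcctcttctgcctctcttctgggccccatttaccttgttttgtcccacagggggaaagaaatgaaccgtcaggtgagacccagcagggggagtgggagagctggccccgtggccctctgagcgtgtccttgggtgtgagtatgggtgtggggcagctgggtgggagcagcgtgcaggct
Tgfa, chr6:86194972-86195221, plus strand: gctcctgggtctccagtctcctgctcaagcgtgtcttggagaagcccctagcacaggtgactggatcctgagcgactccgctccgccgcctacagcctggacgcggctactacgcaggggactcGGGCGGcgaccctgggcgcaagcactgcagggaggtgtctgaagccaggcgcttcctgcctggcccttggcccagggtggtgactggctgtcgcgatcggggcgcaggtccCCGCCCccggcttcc
The capitals mark matches on either strand. A CRE was searched as TGACGTCA, the element bound by CREB factors. The AP-1 site, bound by Fos and Jun, was searched as TGANTCA. The letters TATAAA, a core promoter element, stood for the TATA box. A GC box, bound by Sp1, was taken as GGGCGG. In the printed stretches no match overlapped another. The stretch before Areg held a CRE 61 bases before the start, a GC box 52 bases before it and a TATA box 31 bases before it. The stretch before Epgn held a TATA box 86 bases before the RefSeq start. That start (91027517) lies past the end of the printed stretch, which stops before the GENCODE start. The stretch before Tgfa held 2 GC boxes. None of the 4 motifs was found in the 250 bases before Btc. Among 32851 windows of the same kind, 1.55% held the CRE, 6.75% the AP-1 letters, 12.4% the TATA box and 32.7% the GC box. These matches describe letters and not occupied sites.

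Expression is given in normalised reads, meaning the read count recovered from the deposited value divided by the size factor of its library. Recovered depth ranged from 15.39 M to 20.93 M reads per library. The tissues differed in their cells: the summed level of 20 epithelial marker genes had a median of 462206 normalised reads in CHR (range 346507 to 535834), 964868 in PAP (807696 to 1315970) and 685000 in cuSCC (313216 to 900050). The summed level of 10 skeletal muscle markers had a median of 448549 in CHR, 708.3 in PAP and 109020 in cuSCC, and no marker of either list was at 0 in every library of a group. In such bulk tissue, fewer cells of a type and less RNA per cell cannot be told apart, and the part of these shifts in the results below was not tested beyond the scaling on epithelial markers given with them.

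In PAP against CHR, 6 of the 10 genes differed (limma on log2(value + 1) with the mouse as a block, Benjamini-Hochberg adjusted p below 0.05 over all genes, 2-sided). Epgn, Hbegf, Areg, Tgfa and Erbb3 were higher and Btc was lower (with scaling on epithelial markers Erbb3 turned and Tgfa did not pass), while Egfr, Erbb2, Ereg and Errfi1 did not pass the test. Of all genes tested, 52.6% passed in this comparison, 23.3% as higher and 29.3% as lower, so the share of the family that passed lies near the background. Of the 10 members, 4 rose by more than 1 on the log2 scale and passed, against 4.04% of all genes, and 1 fell by more than 1, against 15.4%. The ranges of the 6 PAP and 6 CHR libraries did not overlap for 4 higher members and 1 lower member, against 14.5% and 19.3% of all genes. The median log2 fold change was 0.471 over the 10 members and 0.00143 over all genes.

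**Figure D1:**
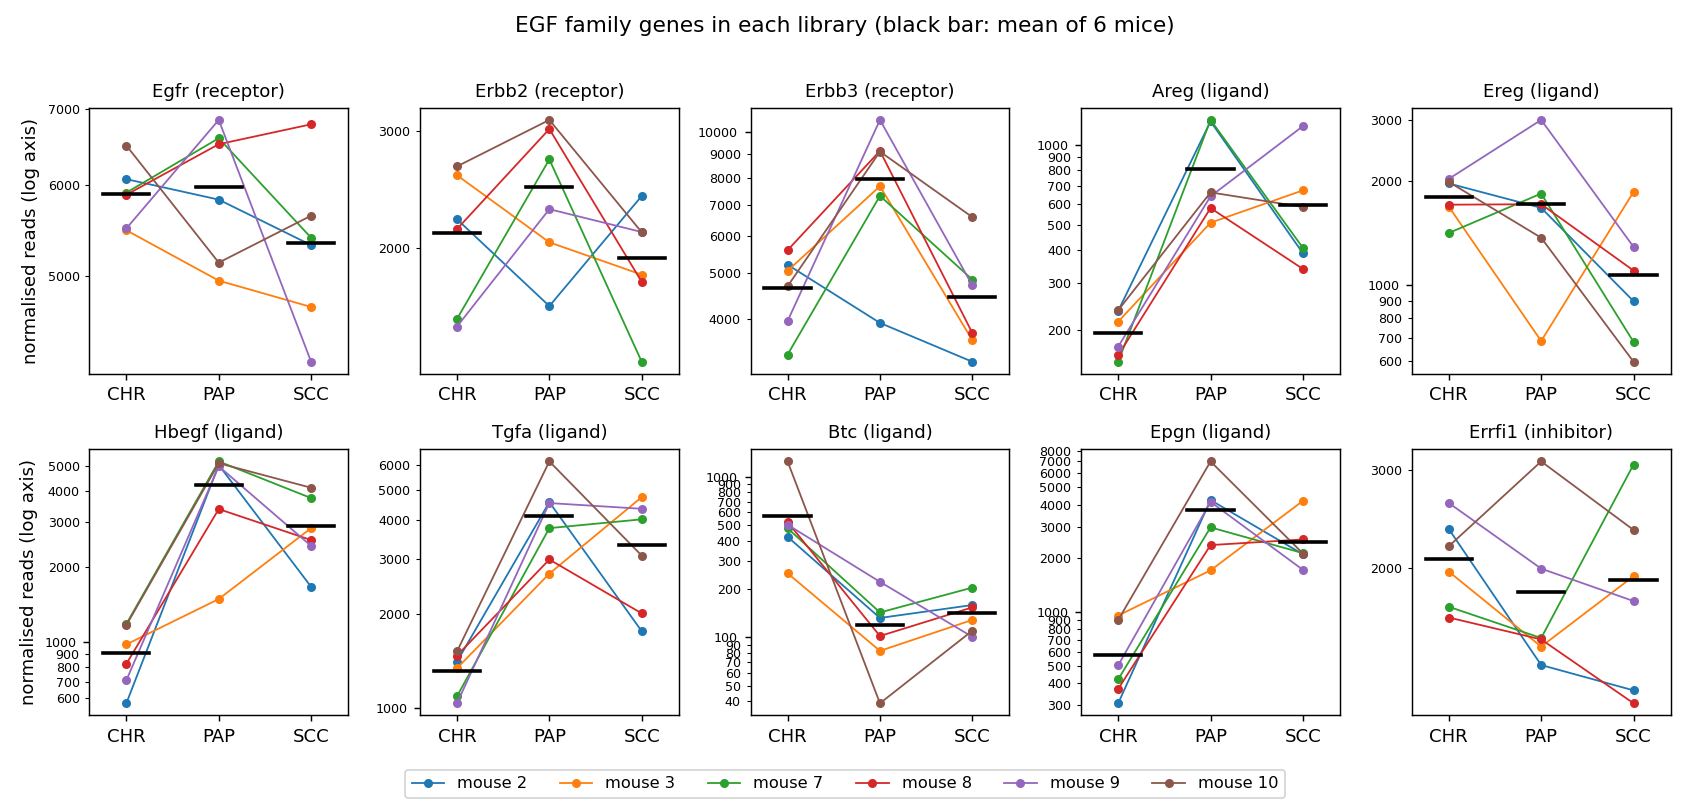
Normalised reads (log axis) of the 10 EGF family genes in each of the 18 libraries, with the 3 tissues on the x axis (SCC marks the carcinomas), 1 coloured line per mouse and a black bar for the mean of 6 mice. Epgn, Hbegf, Areg and Tgfa were higher and Btc lower in the PAP and the carcinoma than in the CHR skin of every mouse, while Egfr lay between 4202 and 6844 in all libraries.

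Among the ligands, Epgn (epigen) had the highest log2 fold change of the 10 genes against CHR in both tumour types. Its level ran from 308.0 to 956.5 in CHR (median 461.0), from 1713 to 6997 in PAP (median 3567) and from 1725 to 4205 in cuSCC (median 2136). Every PAP and every cuSCC library lay above every CHR library. The log2 fold change was 2.52 ± 0.32 (SE, n = 6 mice, limma adjusted p = 2.97e-05) in PAP and 2.02 ± 0.32 (limma adjusted p = 0.000431) in cuSCC, each against CHR, with 6 of 6 mice higher in both.

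Hbegf, the heparin-binding ligand induced in wounded and irritated epidermis and encoded on chromosome 18, ran from 573.9 to 1185 in CHR (median 902.6), from 1487 to 5229 in PAP (median 5030) and from 1664 to 4111 in cuSCC (median 2696). The PAP of mouse 3 was the low value, and the other 5 PAP lay at or above 3383. The log2 fold change was 2.05 ± 0.25 in PAP (limma adjusted p = 2.59e-05) and 1.57 ± 0.25 in cuSCC (limma adjusted p = 0.000516). The ratio of cuSCC to CHR within a mouse was narrow, from 2.89 to 3.51, whereas the ratio of PAP to CHR ran from 1.51 to 8.82.

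Areg (amphiregulin), a major autocrine ligand of keratinocytes, ran from 152.2 to 237.9 in CHR (median 194.5), from 508.2 to 1239 in PAP (median 649.7) and from 340.2 to 1174 in cuSCC (median 495.2). The PAP of mice 2 and 7 stood at 1223 and 1239, and the other 4 lay at or below 660.8. The log2 fold change was 1.65 ± 0.27 in PAP (limma adjusted p = 0.000227) and 1.22 ± 0.27 in cuSCC (limma adjusted p = 0.00351), with 6 of 6 mice higher in each.

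Tgfa, the transforming growth factor first found in the medium of transformed cells, ran from 1039 to 1522 in CHR (median 1378), from 2700 to 6174 in PAP (median 4160) and from 1766 to 4746 in cuSCC (median 3557). No tumour library fell into the CHR range. The log2 fold change was 1.55 ± 0.25 in PAP (limma adjusted p = 0.000219) and 1.21 ± 0.25 in cuSCC (limma adjusted p = 0.00247). With scaling on epithelial markers neither passed, at 0.56 (limma adjusted p = 0.0783) and 0.68 (limma adjusted p = 0.0553).

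Btc (betacellulin), a ligand that binds both Egfr and Erbb4, was lower in the tumours. It ran from 250.8 to 1249 in CHR (median 491.0), from 38.81 to 221.7 in PAP (median 117.0) and from 100.7 to 204.1 in cuSCC (median 141.0). The highest CHR library and the lowest PAP library both came from mouse 10, and every tumour lay below every CHR library. The log2 fold change was -1.70 ± 0.29 in PAP (limma adjusted p = 0.000363) and -1.48 ± 0.29 in cuSCC (limma adjusted p = 0.00194), with 6 of 6 mice lower in each. The summed level of 8 sebaceous gland markers fell alongside it, with medians of 103373 in CHR, 6236 in PAP and 9214 in cuSCC, and its part in the result was not tested.

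Ereg (epiregulin) was the remaining ligand. It ran from 1414 to 2029 in CHR (median 1838), from 687.2 to 3009 in PAP (median 1693) and from 598.3 to 1860 in cuSCC (median 998.4). PAP spread on both sides of CHR, with 3 mice higher and 3 lower and a log2 fold change of -0.17 ± 0.28 (limma adjusted p = 0.632). In cuSCC it was lower in 5 of 6 mice, at -0.79 ± 0.28 (limma adjusted p = 0.0406). That call was lost under 7 of 15 alternatives, among them the omission of any mouse other than mouse 3, where the adjusted p ran from 0.0735 to 0.141.

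Egfr, the receptor that all 6 ligands bind, ran from 5478 to 6499 in CHR (median 5897), from 4949 to 6844 in PAP (median 6172) and from 4202 to 6783 in cuSCC (median 5356). The groups overlapped fully, and the log2 fold change of PAP against CHR was 0.01 with a 95% interval from -0.229 to 0.254, and that of cuSCC against CHR was -0.15 (-0.395 to 0.0882). Erbb2 ran from 1520 to 2653 in CHR, from 1632 to 3119 in PAP and from 1345 to 2394 in cuSCC and passed no test, with log2 fold changes of 0.22 ± 0.18 in PAP and -0.12 ± 0.18 in cuSCC against CHR. Erbb2 overlaps Mien1 on the opposite strand, and since the strand setting of the read counting was not given in the sources used here, their reads may not be separable.

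Of the receptors, Erbb3 passed in PAP against CHR, a rise that turned to a difference of -0.27 with scaling on epithelial markers. It ran from 3352 to 5598 in CHR (median 4875), from 3916 to 10622 in PAP (median 8379) and from 3236 to 6587 in cuSCC (median 4219). In 5 of 6 mice the PAP was above the CHR skin, and mouse 2 went from 5213 to 3916. The PAP of mouse 2 also held 29087 summed skeletal muscle reads, against at most 1177 in the other 5 PAP, and their part was not tested. Without mouse 2 the log2 fold change was 0.95 (limma adjusted p = 0.00125), and without mouse 9 it was 0.59 (limma adjusted p = 0.0469). The call held when any mouse was left out. The log2 fold change was 0.72 ± 0.21 in PAP against CHR (limma adjusted p = 0.00982) and -0.08 ± 0.21 in cuSCC against CHR (limma adjusted p = 0.785).

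Errfi1, the feedback inhibitor, ran from 1628 to 2615 in CHR (median 2077), from 1337 to 3106 in PAP (median 1491) and from 1142 to 3066 in cuSCC (median 1837). It passed no test, with log2 fold changes of -0.23 (95% interval -0.671 to 0.206) in PAP and -0.18 (-0.618 to 0.258) in cuSCC against CHR.

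**Figure D2:**
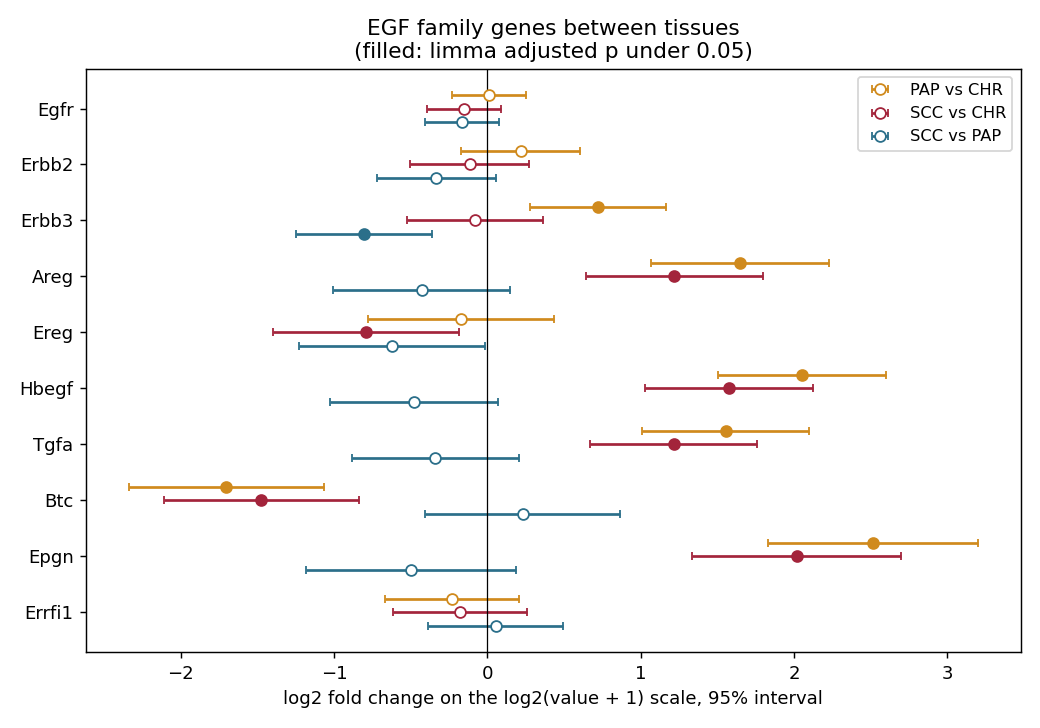
Log2 fold change (x axis, on the log2(value + 1) scale) of each EGF family gene in 3 comparisons, with 95% intervals over 6 mice. Filled points passed limma at an adjusted p below 0.05: in PAP against CHR they run from -1.70 for Btc to 2.52 for Epgn, and in SCC against PAP only Erbb3 is filled.

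In cuSCC against CHR, 6 of the 10 genes passed, 4 higher and 2 lower, where 38.4% of all genes passed (15.8% higher and 22.7% lower). With scaling on epithelial markers 9 passed, since Egfr, Erbb2, Erbb3 and Errfi1 then passed as lower and Tgfa did not pass. Under that scaling 8267 of all 14521 genes passed, 3.45% of them as higher, and the median log2 fold change of all genes was -0.555. The part of this shift in the added lower calls was not tested. The ranges did not overlap for 4 higher members and 1 lower member (8.58% and 11.3% of all genes), and the same 4 rose and 1 fell by more than 1 on the log2 scale (2.87% and 9.12%). This comparison uses the same CHR libraries as that of PAP. Between cuSCC and PAP a single member passed, Erbb3, which was lower in 6 of 6 mice (log2 fold change -0.80 ± 0.21, limma adjusted p = 0.0279), against 9.85% of all genes (8.75% higher and 1.1% lower). No member had groups free of overlap there, against 0.262% of all genes as higher and 0.158% as lower. The call was lost under 6 of 15 alternatives, with an adjusted p of 0.101 without mouse 3, 0.0934 without mouse 7, 0.139 without mouse 8, 0.0587 without mouse 9, 0.0517 when only these 2 groups were fitted and 0.18 with scaling on epithelial markers. The ligands that rose against CHR differed between cuSCC and PAP by -0.50 for Epgn, -0.48 for Hbegf, -0.43 for Areg and -0.34 for Tgfa on the log2 scale (-0.043, -0.023, 0.027 and 0.12 in the same order with scaling on epithelial markers), and none of these passed the test. Without mouse 3 the difference in Hbegf reached -0.76 (limma adjusted p = 0.0464) and that in Ereg -1.01 (limma adjusted p = 0.0338).

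The progression classes of the study come from a mixed model at an unadjusted p below 0.05. A classed gene differs between CHR and cuSCC. It also differs in the same direction between CHR and PAP (early), between PAP and cuSCC (late) or at both steps (stepwise). The early class does not test whether a level holds from PAP to cuSCC. By these classes Areg, Hbegf, Tgfa, Btc and Epgn were early. They kept that class when any mouse was left out. Early genes made up 41.1% of all genes (18.4% higher and 22.6% lower), late genes 2.2% and stepwise genes 0.523%. Ereg fell outside the classes and was late without mouse 3, and the 3 receptors and Errfi1 fell in none.

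The choice of scaling sets the reference for these changes. As an alternative, each library was centred on the median of the 20 epithelial markers. From CHR to PAP this marker median rose by a mean of 0.992 ± 0.33 (SD, n = 6) on the log2 scale. After this centring the median log2 fold change of all genes moved to -0.991 in PAP against CHR and to -0.555 in cuSCC against CHR. Relative to epithelial markers Epgn (1.52), Hbegf (1.06) and Areg (0.66) remained higher in PAP and Btc (-2.70) lower. Tgfa no longer passed (0.56, limma adjusted p = 0.0783), and Erbb3 turned to -0.27 (limma adjusted p = 0.245). Egfr was then lower at -0.98 (limma adjusted p = 7.2e-05), beside the shift of -0.991 in the median gene, and Erbb2 (-0.77), Ereg (-1.16) and Errfi1 (-1.23) also passed as lower. In cuSCC against CHR the same scaling left Epgn (1.48), Hbegf (1.04) and Areg (0.68) higher and Btc (-2.01) and Ereg (-1.33) lower. Egfr (-0.69, limma adjusted p = 0.0032), Erbb2 (-0.65, limma adjusted p = 0.0119), Erbb3 (-0.62, limma adjusted p = 0.0236) and Errfi1 (-0.72, limma adjusted p = 0.0331) passed as lower there, beside a median gene at -0.555.

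**Figure D3:**
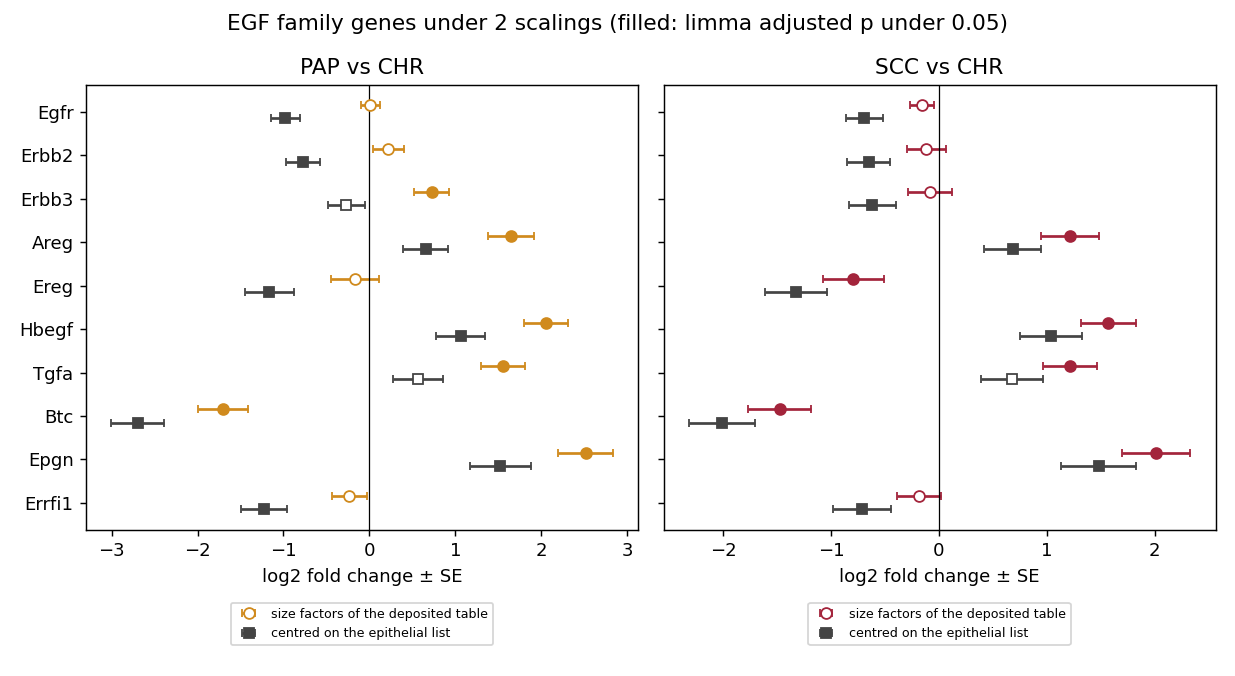
Log2 fold change ± SE of each EGF family gene in PAP and in SCC against CHR under the size factors of the deposited table (circles) and after centring each library on the epithelial markers (squares), with filled symbols at a limma adjusted p below 0.05. Epgn, Hbegf and Areg stay above 0 and Btc below 0 under both, while Erbb3 in PAP moves from 0.72 to -0.27.

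To compare levels between genes, normalised reads were divided by exon length in kilobases. In CHR the highest member was Erbb3 (772.0 per kb) and the lowest Btc (126.4 per kb), and neighbours in the order overlapped throughout. In PAP Epgn led at 2072 per kb, followed by Erbb3 (1322 per kb) and Hbegf (872.4 per kb), with Btc last at 26.53 per kb. The same 3 genes led in cuSCC, and in both tumour types only Ereg and Btc, last in the order, were neighbours whose ranges did not overlap. The order depends on the length used: with the longest coding transcript Hbegf stood above Erbb3 in PAP (1776 against 1322 per kb) and in cuSCC (1216 against 739.7 per kb), and the lowest member in CHR was Areg (161.4 per kb).

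The make-up of the summed ligand transcripts is given by share. Epgn made up 21.5% ± 7.25 (SD, n = 6) of the summed ligand level per kb in CHR, 42.9% ± 7.70 in PAP and 42.1% ± 9.13 in cuSCC. Ereg, the leading ligand of CHR at 31.0% ± 5.52, made up 9.12% ± 3.31 in PAP and 7.88% ± 2.29 in cuSCC. Btc went from 8.57% ± 3.48 to 0.616% ± 0.275 and 1.03% ± 0.401, and Tgfa kept a like share (14.4%, 14.0% and 15.4%). The summed ligand level was 2.75 ± 0.460 times that of Egfr in CHR, 8.98 ± 3.55 times in PAP and 7.20 ± 2.57 times in cuSCC. With the longest coding transcript as the length, Epgn made up 34.87% of the ligand level in PAP, Ereg 24.81% in CHR, and Hbegf 21.33% in CHR, 29.56% in PAP and 29.44% in cuSCC, in place of 13.2%, 18.4% and 18.7%. Among the receptors Erbb3 held 45.3% ± 3.58 in CHR, 55.9% ± 6.84 in PAP and 46.3% ± 7.28 in cuSCC. These shares are descriptions without a test.

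**Figure D4:**
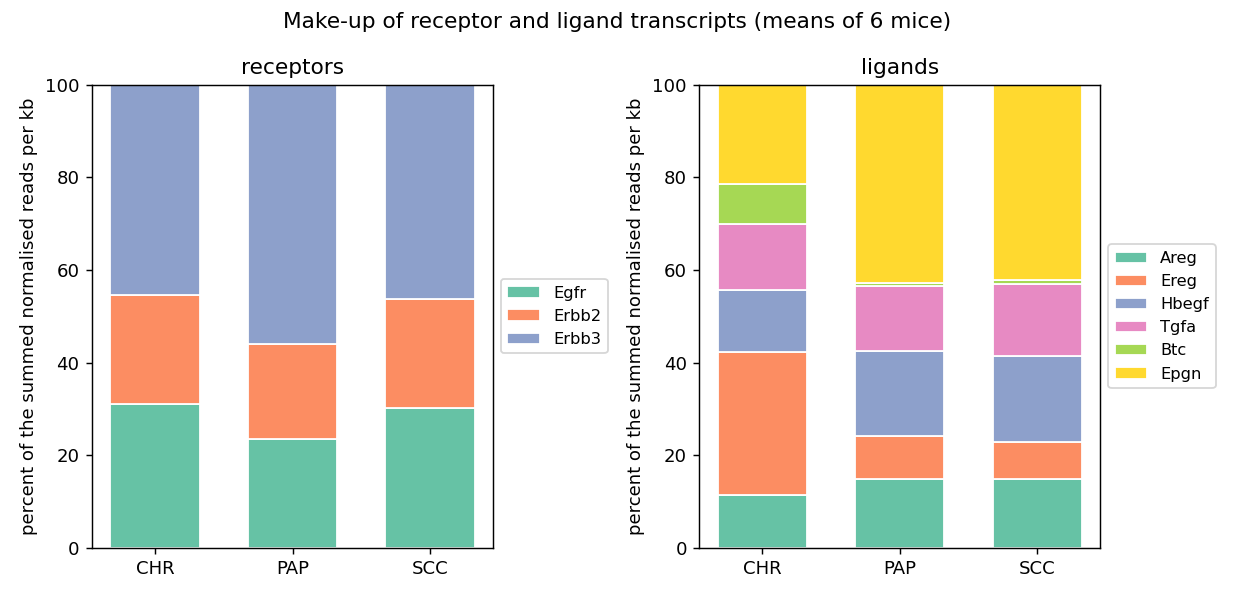
Share of each gene (y axis, percent) in the summed normalised reads per kb of exon of the 3 receptors (left) and of the 6 ligands (right), as means of 6 mice per tissue. The Epgn share goes from 21.5% in CHR to 42.9% in PAP and 42.1% in SCC, and the Ereg share from 31.0% to 9.12% and 7.88%.

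Lesions of different mice differed in their ligand levels. With 1 library per tissue and mouse, differences between mice and between lesions cannot be told apart. The PAP of mouse 3 was the lowest of the 6 PAP for 5 of the 6 ligands, the exception being Btc, and the cuSCC of the same mouse was the highest of the 6 cuSCC for 3 of the 6. In that mouse Epgn ran from 956.5 in CHR to 1713 in PAP and 4205 in cuSCC. Its PAP held 973382 summed epithelial reads, inside the range of the other PAP, and 9504 summed myeloid reads, the lowest of the 6. The median log2 value of the epithelial markers was 14.20 in that PAP, the highest of the 6, against 13.59 to 14.15 in the others. The part of these marker levels in the ligand results was not tested. The ligands that rose varied together across the 18 libraries, with Pearson r of 0.909 between Hbegf and Epgn and 0.885 between Hbegf and Tgfa, and Btc ran against Epgn (r = -0.763). These coefficients describe libraries that comprise 3 tissues of the same 6 mice. The differences between tissues enter them, since these genes were all higher or lower in the tumours. They therefore do not show variation together between mice, and correlation within a tissue is not given here.

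The genes of the whole table most like Areg over the 18 libraries were Ddx21 (r = 0.96), an RNA helicase of ribosome biogenesis, Ercc6l (0.959), a mitotic helicase, and Rrm1 (0.955), a subunit of ribonucleotide reductase. Among the genes most like Egfr were Amotl2 (0.875) and Mid2 (0.798), and Errfi1 was most like Plekha8 (0.812), Slc25a25 (0.733) and Tor2a (0.701). Differences between tissues enter these coefficients as well.

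Of 4 other ligands of the receptor family that were measured, Nrg1 rose and Nrg4 and Egf fell in both tumour types, and Nrg2 did not pass, while Erbb4 and Nrg3 were not analysed here. Of all genes, 52.6% passed in PAP and 38.4% in cuSCC against CHR. Alongside the lower Egf and Nrg4, 8 of 8 sebaceous gland markers and 7 of 8 adipocyte markers were lower in both tumour types, and 6 of 8 dermal fibroblast markers were lower in PAP and 2 of 8 in cuSCC. The summed adipocyte markers had medians of 15914 in CHR (range 6391 to 18545), 5305 in PAP (2108 to 13298) and 10590 in cuSCC (1839 to 22626). The part of these shifts in the ligand results was not tested. Nrg1, a neuregulin that binds Erbb3, ran from 71.37 to 183.2 in CHR, from 212.4 to 1983 in PAP and from 262.9 to 1461 in cuSCC. Its log2 fold change was 2.13 ± 0.46 in PAP (limma adjusted p = 0.00179) and 2.24 ± 0.46 in cuSCC (limma adjusted p = 0.0023), higher in 6 of 6 mice in each. Egf itself was low throughout, with means of 171.8 in CHR, 45.46 in PAP and 65.42 in cuSCC, and Nrg4 went from 221.6 to 32.06 and 33.31.

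Of 6 genes of ligand shedding, 1 was higher and 2 were lower in PAP, where 23.3% of all genes were higher and 29.3% lower, so these counts lie near the background. Adam10, a sheddase of Btc and Egf, rose (0.88 ± 0.16 on the log2 scale, limma adjusted p = 0.000545), and Timp3, an inhibitor of such proteases, fell (-1.97 ± 0.29, limma adjusted p = 9.16e-05). Adam17, the main sheddase of Areg, Hbegf and Tgfa, was lower at -0.41 (limma adjusted p = 0.018). In cuSCC Adam10 (0.56) and Timp3 (-1.06) passed again and Adam17 (-0.27) did not. The median of the epithelial markers within a library rose by 0.992 in PAP and by 0.535 in cuSCC, each against CHR. The median of the fold changes of the 20 markers was 0.97 in PAP and 0.28 in cuSCC, with 15 and 9 of the 20 called higher. In PAP the rise of Adam10 lay below both values. In cuSCC it lay near the 0.535 and above the 0.28. No test relative to these markers is given here for genes outside the family.

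Of 13 adaptors and proximal signalling genes, 2 were higher and 2 lower in PAP, and 1 higher and 2 lower in cuSCC, where 15.8% of all genes were higher and 22.7% lower. None of these shares exceeds that of all genes. The kinase Src rose (0.84 in PAP and 0.90 in cuSCC), and Pik3r1, a regulatory subunit of PI3 kinase (-1.17 and -0.99), and the adaptor Grb2 (-0.56 and -0.37) fell. Of 15 genes of receptor turnover and negative regulation, 2 were higher and 4 lower in PAP, and 1 higher and 3 lower in cuSCC, shares that do not exceed those of all genes either. Lrig1, which promotes the degradation of ErbB receptors (-1.32 and -1.19), its relative Lrig3 (-1.22 and -1.42) and the ubiquitin ligase Cbl (-0.40 and -0.52) fell. The phosphatase gene Ptpn1 was higher in PAP (0.38, limma adjusted p = 0.00941), and Hgs, which sorts receptors in endosomes, rose (0.62 and 0.39). In PAP the rises of Src, Ptpn1 and Hgs lay below the 0.992 of the epithelial marker median. In cuSCC the rise of Hgs lay below the 0.535 of that median but above 0.28, the median of the marker fold changes. That of Src lay above both. Between cuSCC and PAP no gene of these 4 lists passed limma after adjustment, and 2 had an unadjusted p below 0.05, Timp3 and Cblb.

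**Figure D5:**
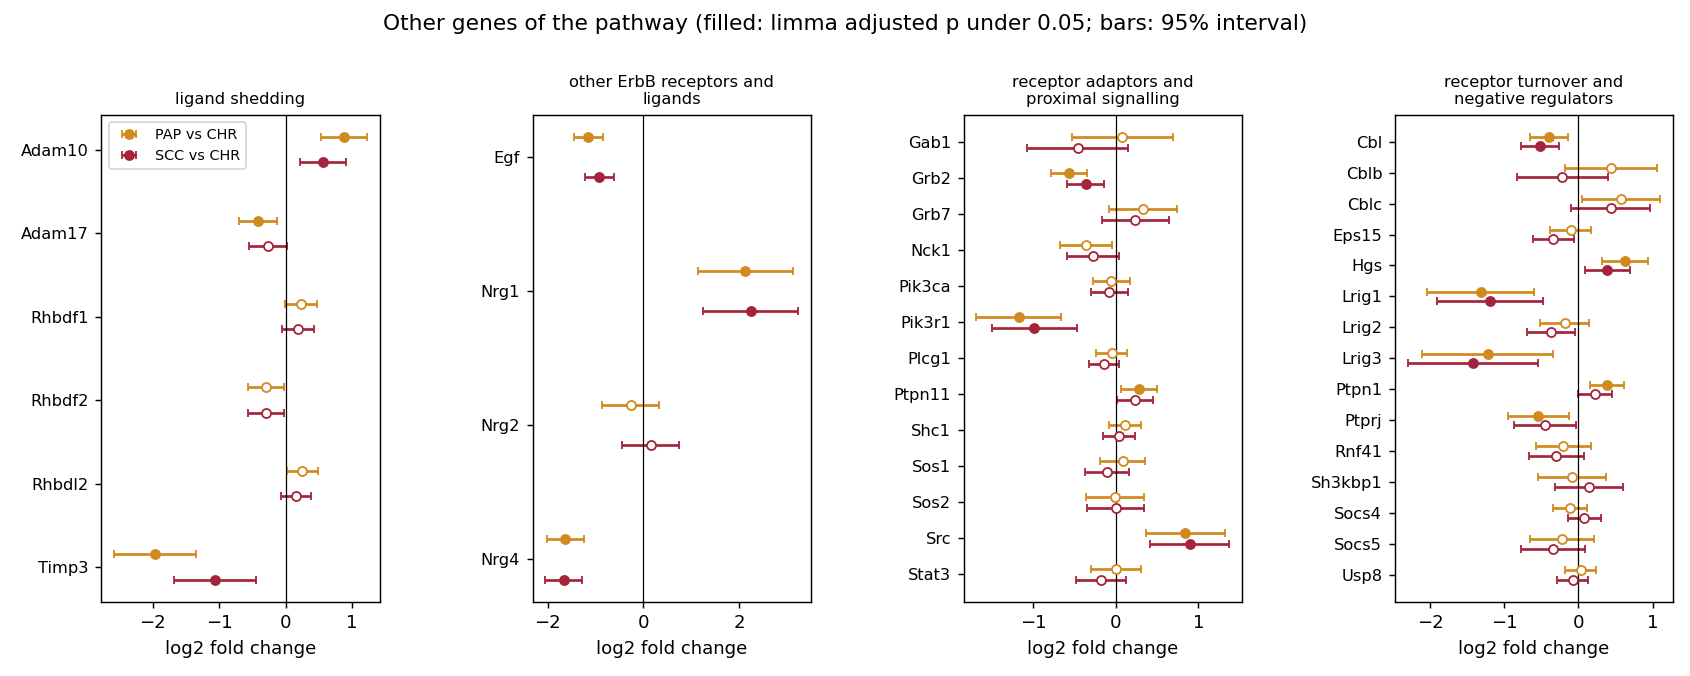
Log2 fold change with 95% intervals over 6 mice for the other measured genes of the pathway, in 4 lists, in PAP and in SCC (the carcinomas) against CHR. Filled points passed limma at an adjusted p below 0.05, with Nrg1 at 2.13 and 2.24 and Timp3 at -1.97 and -1.06.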

How the data were processed

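RNA sequencing of 18 libraries (3 tissues of 6 mice) was analysed from the table the authors deposited. Per the labels and the methods of the study, reads were aligned to mm10 and counted per gene with HTSeq, then normalised and variance-stabilised. The deposited values are a score in whole numbers, on the linear scale of the variance-stabilising transformation of DESeq2 as the authors applied it, in which 0 reads reads as 39. Reads were recovered by inverting that scale, with size factors from 0.8345 to 1.182. For 99.13% of values the rounding of the deposited value allowed a whole number of reads, and for 97.56% of values below 100. At high values the rounding allows a whole number almost regardless of the fit, so the share tells little there. The methods also mention a batch correction, and no batch is named in the labels. The table holds 14542 entries, of which 21 carry no gene name and were left out (at most 0.2355% of a library).

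limma 3.58.1 (R 4.3.3) was fitted to log2(value + 1) of the 14521 named genes in all 18 libraries, with the mouse as a block, since same-numbered samples are from 1 animal. Deviations of same-mouse libraries had a median r of 0.10, against 0.0045 for different mice. No filter on low values was applied, so all 10 members were tested. Fold changes on this scale understate those of low genes. Data were also simulated (PAP against CHR, 14521 genes) with the same dispersion for all genes and a small number of changed genes. The fit made 131 calls there and recovered 31% of genes changed 2-fold and 96% of those changed 4-fold. In the data 7639 genes passed in this comparison, so these shares do not give the power for single members. Progression classes used nlme 3.1-168. Lengths are unions of exons in GENCODE M21. There were 15 alternatives per comparison. All members are described, and from the pathway lists the 3 genes of lowest p per comparison among those called, while Nrg2 and Cblb fall outside that rule and were named after their values were seen. A gene that the rule on likeness to a member would name is not reported here. The members, lists and rules were chosen with earlier results of these data known. P-values measure the spread of tissue differences within a mouse, over 6 littermates with 1 library per tissue and mouse.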

Additional observations from a re-analysis of the deposited data

Results flagged for a closer look

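In 30 groups of 6 libraries (10 genes in 3 tissues), 3 held a library that stood apart from the rest by Dixon's criterion, where chance gives about 1.5. Btc in the CHR skin of mouse 10 stood at 1249 normalised reads, with the next library at 523.5. Epgn in the cuSCC of mouse 3 stood at 4205, with the next at 2554. Errfi1 in the PAP of mouse 10 stood at 3106, with the next at 1993.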

How the results depend on the processing

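The calls of Epgn, Hbegf, Areg and Btc against CHR held under each of the 15 alternatives in both tumour types. Removing the replicate block changed no call of a member, but 810 rather than 1430 of all genes then passed in cuSCC against PAP. That count was 709 with at least 10 reads in every library, 0 with only the 2 groups fitted and 4906 with epithelial centring, and it ran from 0 to 1995 when 1 mouse was left out (0 without mouse 7 and without mouse 8, 471 without mouse 3). The members passing in that comparison numbered 0 with only the 2 groups or with epithelial centring, and from 0 to 2 when 1 mouse was left out. In PAP against CHR epithelial centring called 12619 genes. It turned the log2 fold change of Egfr (-0.98), Erbb2 (-0.77) and Erbb3 (-0.27) in PAP against CHR, and of Egfr (0.29), Erbb2 (0.12), Areg (0.027) and Tgfa (0.12) in cuSCC against PAP. Of the calls in PAP against CHR, 44.4% were higher, against 57.7% after centring on the median of all genes, which moved that median to 0.14, and 1.35% after epithelial centring. In cuSCC against CHR these shares were 41.0%, 52.5% and 3.45%, and in cuSCC against PAP epithelial centring moved the share from 88.8% to 99.8%. Centring on the median of all genes turned Errfi1 to -0.0098 in cuSCC against PAP. Leaving out 1 mouse changed the sign of 4 differences that had not passed with the deposited size factors: Egfr (-0.048 to 0.082) and Ereg (-0.32 to 0.036) in PAP against CHR, Errfi1 (-0.14 to 0.14) in cuSCC against PAP and Erbb3 (-0.20 to 0.039) in cuSCC against CHR. With the longest coding transcript as length, chosen after seeing the data, the ligand share was 34.87% for Epgn in PAP, 24.81% for Ereg and 9.09% for Areg in CHR, and for Hbegf 21.33% in CHR, 29.56% in PAP and 29.44% in cuSCC. The cause of these changes was not tested. Depth limits the lowest member most: Btc in the PAP of mouse 10 stood at 38.81 normalised reads.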
